A study of Mus musculus with 8 samples.

Results

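The S100 calcium-binding genes were followed across the cell types, melanoma states and host genotypes of 8 large B16F10 tumours, each measured as 1 single-cell RNA-seq library. The 10 genes, S100a1, S100a4, S100a6, S100a8, S100a9, S100a10, S100a11, S100a13, S100a16 and S100b, were taken by symbol from the 31053 genes of the deposited feature tables. They were chosen by gene family with measured levels and genotype differences of these same tumours already known, so their levels by cell type are given as a description without a test, and their genotype values are not independent evidence. B16F10 is a pigmented mouse melanoma line of C57BL/6 origin, and its cells were injected with Atf4 intact. The hosts were 4 Atf4wt/wt mice (2 male, 2 female) and 4 Atf4D/D mice (1 female, 3 male) of 12 weeks, and the tumours were taken at 300 mm3. In Atf4D/D hosts, tamoxifen given to mice with a Rosa26::CreERT2 transgene and floxed Atf4 had removed exons of this stress-response transcription factor from the whole animal. The Atf4wt/wt hosts also carried the CreERT2 transgene and also received tamoxifen, so that both groups share the recombinase and the drug. The melanoma cells therefore had the same genotype in all 8 tumours, and only the host cells differed.

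S100 proteins are small EF-hand proteins that change shape on binding calcium and then dock onto other proteins. Inside cells their partners include annexins, myosin and ubiquitin-ligase components, and several are also released and act on receptors such as RAGE, the product of Ager, and Tlr4. S100b is a routine diagnostic marker of melanocytic tumours, S100a4 is also called fibroblast-specific protein, and S100a8 with S100a9 forms calprotectin, an abundant product of neutrophils and some monocytes.

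The 8 libraries held between 37283598 and 74942137 UMIs in 41925 barcodes, of which 28170 were kept. Between 2706 and 5573 cells per tumour remained, with a median of 8117 to 11054.5 UMIs per cell. Of 41725 distinct barcodes, 199 (0.477%) occurred in more than 1 library. Cells were named by markers with no S100 gene among them, and clustered with the 10 S100 genes among the variable genes left out. Melanoma-like cells made up 23704 (84.1%), CAF-like cells (cancer-associated fibroblasts) 589, TAM-like cells (tumour-associated macrophages) 449, monocyte-like cells 233, T/NK-like cells 92, dendritic-like cells 89, pericyte-like cells 61 and endothelial-like cells 36. All 10 melanoma markers were detected in every tumour. A further 2805 cells of low UMI content stayed unnamed, and 77 CAF-like and 35 immune cells that also led with melanoma markers were set apart. Atf4 checked the labels: in CAF-like cells it averaged 278 ± 24.8 CPM (SD, 4 tumours) in Atf4wt/wt and 71.4 ± 25.9 CPM (3 tumours) in Atf4D/D hosts, a log2 difference of -2.02 (SE 0.244, edgeR adjusted p = 0.00286). In melanoma-like cells Atf4 stood at 364 ± 72.4 and 372 ± 55.3 CPM. It averaged 236 and 69.2 CPM in TAM-like cells, with overlapping groups, and 199 and 75.1 CPM in monocyte-like cells. Dendritic-like cells had 115 and 97.2 CPM, from 4 and 7 UMIs, with overlapping groups. The study states that the tamoxifen-induced deletion was efficient but not complete. CPM here means UMIs of the gene per 1e+06 UMIs of that cell class in that tumour, with the totals scaled by TMM factors; pooled values have no such scaling. UMIs were read from transcript 3' ends, and no level is compared between genes, except that the ratio of S100a1 to S100b is set beside itself in other classes.

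Of the 10 genes, 9 lie on mouse chromosome 3 in GRCm38 (GENCODE vM21), and S100b lies alone on chr10:76253853-76261159. The first 7 stand in a row from S100a1 (chr3:90511034-90514392, minus strand) through S100a13 (chr3:90514435-90524581), S100a16, S100a4 (chr3:90603771-90606045), S100a6 (chr3:90612882-90624181) and S100a8 to S100a9. S100a11 and S100a10 form a separate pair 2824766 bases beyond S100a9. All 10 are protein-coding. S100a1 and S100a13 are divergent neighbours with only 42 bases between their annotated ends. An exon of S100a4 overlaps the same-strand gene Gm42674, so reads there cannot be assigned to either with certainty, and S100a11 has a pseudogene that the feature tables do not list.

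Promoter windows of 300 bases in RefSeq (GRCm38.p6) were found for 9 of the 10 genes, S100a10 being the one without. The letters TATAAA stood on the gene's strand in 3 of the 9 windows, those of S100a4, S100a8 and S100a9, and in 8.32% of 32851 mouse promoters. The stretches of these 3 genes, which were highest in myeloid cells or in a cell with neutrophil transcripts, are shown 5′ to 3′ with TATAAA in capitals, together with 30 of the 42 bases between S100a13 and S100a1, which hold no such letters.
S100a4, chr3:90603727-90603756, plus strand: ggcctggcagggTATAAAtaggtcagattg
S100a8, chr3:90669029-90669058, plus strand: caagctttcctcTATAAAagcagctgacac
S100a9, chr3:90695704-90695733, minus strand: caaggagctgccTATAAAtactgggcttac
S100a13, chr3:90514395-90514424, plus strand: ccaggagggaaggggctgtcctgtgtttct
The motif begins 31 bases before the RefSeq start of S100a4 and 30 before that of S100a8, while in S100a9 it lies at the listed start itself. The palindrome CACGTG occurred in the windows of S100a6 and S100a11 (7.15% of all promoters) and the AP-1 motif TGACTCA in that of S100a11 (5.20%), on either strand. TGATGCAA, a composite site of ATF4 and C/EBP, was in none of the 9 windows (0.895% of all promoters). A match describes letters only, and a missing match says nothing beyond this window.

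S100a1 and S100b were the members with their higher levels in the melanoma cells. S100a1, known as a regulator of calcium handling in muscle, stood at 158, 182, 204 and 173 CPM in the melanoma-like cells of the 4 Atf4wt/wt tumours and at 178, 259, 174 and 159 CPM in those of the Atf4D/D tumours. S100b stood at 129.9, 173, 175 and 127 CPM and at 153, 165, 127 and 142 CPM. Both were present in melanoma-like cells of every tumour, with overlapping ranges in the 2 host genotypes. In CAF-like cells the pooled level of S100a1 was 3.24-fold lower than in melanoma-like cells, and that of S100b 9.60-fold lower, with 0 of 7 tumours going the other way for either gene. Pooled over cells, S100a1 lay below its melanoma-like level in 7 of 7 host classes, and so did S100b.

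The pigment genes Pmel, Mlana, Dct, Tyrp1 and Tyr, summed, reached 4.52% of their melanoma level in CAF-like cells and 7.97% in TAM-like cells. At the same rate, as a level that RNA carried over from melanoma cells would give, S100a1 would stand at 8.31 CPM in CAF-like cells, where 56.7 CPM (156 UMIs) were measured, and at 14.6 CPM in TAM-like cells, where 92.8 CPM (92 UMIs) were measured. For S100b the carried level would be 6.63 CPM in CAF-like cells against 15.3 CPM measured, and 11.7 against 23.2 CPM in TAM-like cells. The ratio of S100a1 to S100b UMIs was 1.25 in melanoma-like, 3.71 in CAF-like and 4 in TAM-like cells. In smaller classes the order varied. Monocyte-like cells had a ratio of 1.5, and T/NK-like cells one of 0.286, with 2 UMIs of S100a1 against 2.14 carried at the pigment rate and 7 UMIs of S100b against 1.71. The part of carried RNA in these levels was not tested.

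S100a6, calcyclin, a partner of annexins and of Cacybp, had the largest pooled ratio of CAF-like to melanoma-like level among the 10 genes. CAF-like cells held 5089, 6173, 6738 and 7037 CPM in the Atf4wt/wt tumours and 7523, 6823 and 8068 CPM in Atf4D/D tumours 1, 2 and 4, the third having only 7 such cells. The pooled level was 223-fold that of melanoma-like cells and lay above it in 7 of 7 tumours. The other mesenchymal and vascular cells were high as well: pericyte-like cells had a pooled 4668 CPM (95% Poisson interval 4376 to 4975) and endothelial-like cells 2180 CPM (1907 to 2481), intervals that cover counting error only.

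S100a16, a broadly expressed member of little-known function, was found in fibroblasts and vessel cells and hardly at all in blood-derived cells. It averaged 529 ± 125 CPM (SD, n = 7 tumours) in CAF-like cells, 32.4-fold its melanoma level when pooled, and reached 428 CPM (312 to 573, 45 UMIs) in endothelial-like cells. In monocyte-like, dendritic-like and T/NK-like cells it had 0 UMIs, which allows levels of up to 11.2, 22.3 and 30.4 CPM by a limit of 3 counts, and in TAM-like cells 2 UMIs. Pericyte-like cells had 4 UMIs, or 19.6 CPM (5.34 to 50.2), although S100a6 was abundant in the same cells.

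S100a13, which takes part in the release of Fgf1 and Il1a, was 6.44-fold its melanoma level in CAF-like cells, at 337 ± 40.5 CPM (n = 7). It was above the melanoma level in pooled cells of all 7 host classes, whereas S100a1, its neighbour across the 42 bases, was below it in all 7. S100a11, an annexin A1 partner, averaged 1166 ± 125 CPM in CAF-like cells and 103 ± 12.5 CPM in melanoma-like cells (n = 8), and pericyte-like cells held it at 1716 CPM. S100a10, the partner of annexin A2 in a complex that assembles plasminogen at the cell surface, averaged 1022 ± 403 CPM in CAF-like and 166 ± 23.4 CPM in melanoma-like cells. Neither gene was particular to fibroblasts. Pooled, S100a10 was at 1479 CPM in monocyte-like, 1246 in T/NK-like and 1261 in CAF-like cells. S100a11 was at 1187 CPM in dendritic-like and 1218 in CAF-like cells.

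By pooled level, the fibroblast subclusters ranked alike for the 6 members that were higher in CAF-like than in melanoma-like cells. The 102 cells led by Cxcl13, Pi16 and Clec3b had the highest pooled level of all 6: S100a6 at 8262 CPM, S100a10 at 2193, S100a11 at 1509, S100a16 at 933, S100a4 at 781 and S100a13 at 597. The 189 cells led by Pgf and Ndrg1, genes induced by low oxygen, had the lowest level of each, with S100a6 at 6243, S100a10 at 883 and S100a16 at 323 CPM. The 298 cells led by Cxcl9 and Lrrc15 lay between them for all 6. Pooled levels weight tumours by their cells, and Atf4D/D tumour 4 gave 36.3% of the cells of the Cxcl13-led, 33.3% of the Pgf-led and 31.5% of the Cxcl9-led subcluster. Tumour by tumour, where both subclusters held at least 10 cells, the Cxcl13-led cells were above the Pgf-led cells in 5 of 5 tumours for 5 of the members and in 3 of 5 for S100a4. The Cxcl13-led cells were above the Cxcl9-led cells in 4 of 5 tumours for S100a6 and in 5 of 5 for the others. The Cxcl9-led cells were above the Pgf-led cells in 4 of 6 tumours for S100a6 and S100a4. This was so in 6 of 6 for S100a16 and in 5 of 6 for the others.

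**Figure D1:**
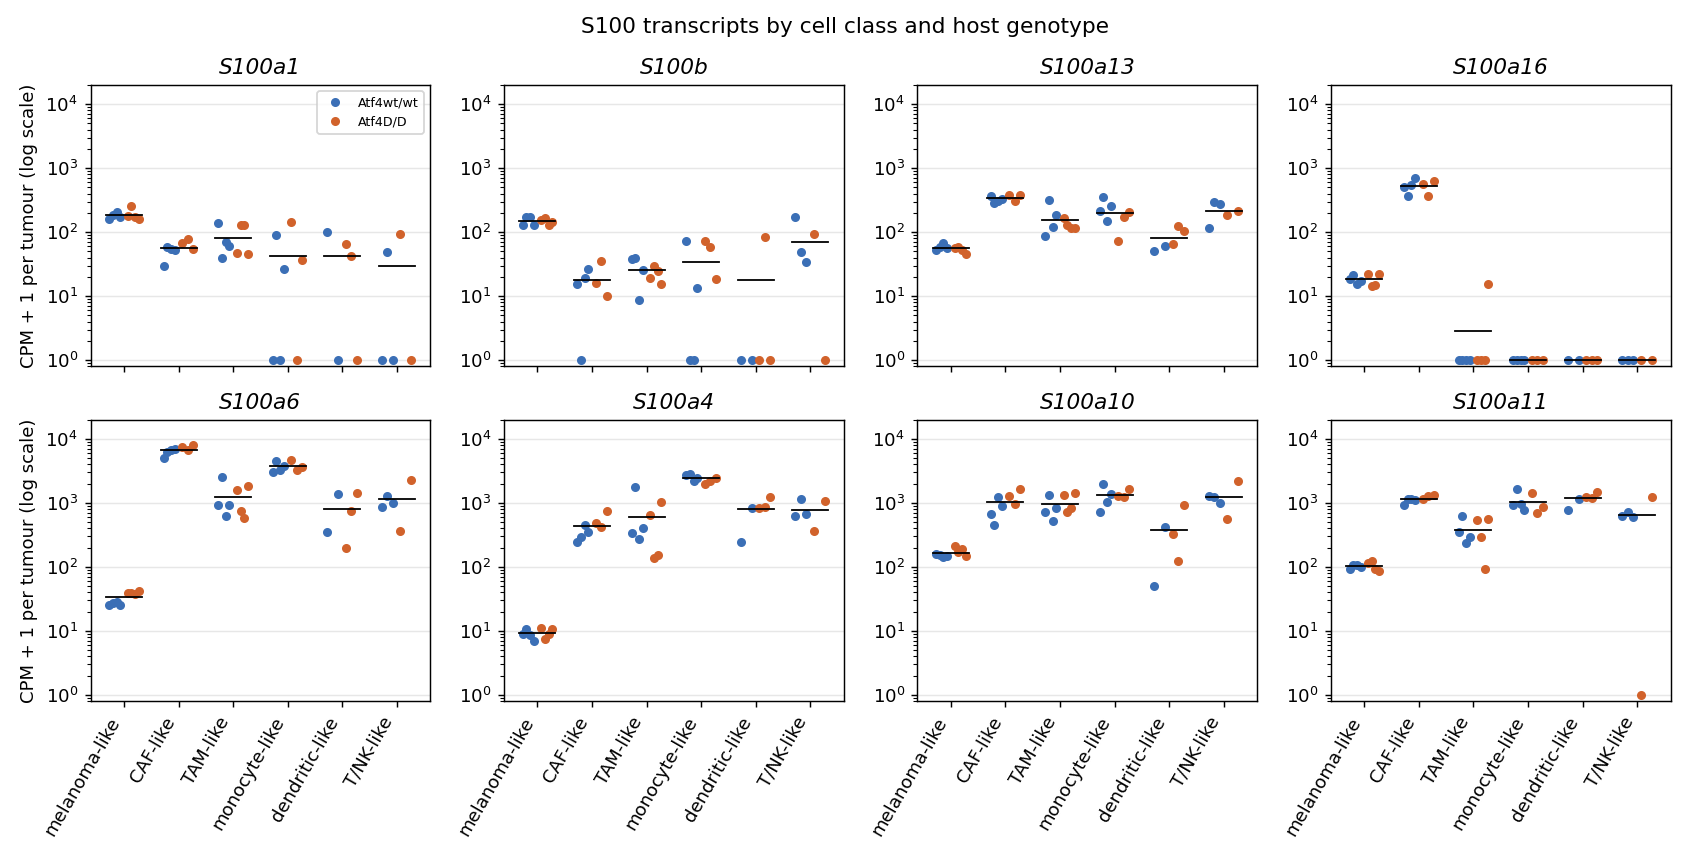
CPM + 1 on a log axis for each S100 gene, with 1 point per tumour and cell class that held at least 10 cells, in Atf4wt/wt and Atf4D/D hosts. The pooled levels of S100a1 and S100b are higher in melanoma-like cells than in the other classes shown, although T/NK-like cells of 1 tumour reach 173 CPM of S100b from 3 UMIs, S100a6 stands between 5089 and 8068 CPM in CAF-like cells, and S100a16 is at 0 in most immune classes.

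S100a4, which binds non-muscle myosin and is much used as a fibroblast marker, was higher in monocytes than in fibroblasts. Monocyte-like cells held 2786, 2834, 2204 and 2461 CPM in the Atf4wt/wt tumours and 1979.6, 2234 and 2462 CPM in Atf4D/D tumours 1, 2 and 4. CAF-like cells held 246, 296, 449 and 346 CPM and 489, 426 and 754 CPM in the same tumours, so the ranges did not overlap. Dendritic-like cells averaged 807 ± 352 CPM (n = 5) and T/NK-like cells 785 ± 332 CPM (n = 5), whereas melanoma-like cells averaged 8.21 ± 1.57 CPM (n = 8). Endothelial-like cells had 4 UMIs of it.

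Values in macrophages were spread more widely between tumours than those in monocytes. S100a4 in TAM-like cells was 335, 1794, 274 and 400.3 CPM in Atf4wt/wt tumours and 651, 138, 152 and 1052 CPM in Atf4D/D tumours, and S100a6 was 943, 2574, 627 and 934 CPM and 1599, 741, 586 and 1834 CPM. The second Atf4wt/wt tumour stood apart for both genes and rested on 18 cells. By subcluster, TAM-like cells led by Mmp12 and Arg1 held S100a6 at 1720 and S100a4 at 693 CPM, those led by Vcam1 and Ccl8 830 and 346 CPM, and the cycling ones led by Cenpe 598 and 204 CPM. In dendritic-like cells S100a6 was 1426 CPM in those led by Cd209a and 448 CPM in those led by Fscn1 and Ccr7, while S100a4 went the other way, 923 against 1246 CPM.

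S100a8 and S100a9 were almost absent from the cells analysed, while monocyte-like cells were present. In the cells that passed the filters they had 160 and 121 UMIs, and no cluster was led by neutrophil genes. A single barcode in the T/NK-like cluster, from Atf4D/D tumour 4, held 41 UMIs of S100a8 and 82 of S100a9 among its 506 UMIs, together with 7 of 13 neutrophil genes, including 28 UMIs of Retnlg and 5 of Lcn2, and none of the T/NK markers. One melanoma-like barcode of Atf4D/D tumour 1 held 12 UMIs of each among its 16577 UMIs, together with 3 of the 13 neutrophil genes. These were the only 2 cells with both transcripts, and the other 91 T/NK-like cells held 0 UMIs of S100a8 and 1 of S100a9. Class levels of the pair in T/NK-like cells thus rest on 1 barcode.

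In melanoma-like cells 125 of 23704 (0.527%) had a UMI of S100a8 or S100a9 at a median depth of 10307 UMIs, and 0.0380% when each cell was thinned to 500 UMIs. In CAF-like cells, which should lack both, it was 0 of 589 at a median depth of 4436 UMIs, an upper 95% limit of 0.624%. At that number of CAF-like cells a share as low as that of the melanoma-like cells was not detectable, so no background level was measured for it. Monocyte-like cells, a reported source of the pair, had 2 UMIs of S100a8 and 0 of S100a9. The 7 monocyte genes, which also served to name this class, summed to 7492 CPM in it. They summed to 917 CPM in CAF-like and 912 CPM in T/NK-like cells.

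The melanoma-like cells formed 9 clusters, in which the S100 genes took different courses. A cluster of 708 cells led by Lgals3 had the highest mean of 5 members. S100a6 averaged 231 ± 98.5 CPM there (SD, n = 8 tumours), S100a10 403 ± 61.9, S100a13 113 ± 18.4, S100a16 30.3 ± 12.2 and S100a4 23.2 ± 8.92 CPM. S100a6, S100a10, S100a13 and S100a4 were above the other melanoma-like cells in 8 of 8 tumours, and S100a16 in 7. In such counts, here and below, the totals of the cluster were TMM-scaled and those of the other melanoma-like cells were not. The cluster made up between 1.63% and 5.69% of the melanoma-like cells of a tumour.

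The Lgals3-led cluster was followed by the hypoxic one for S100a6 and S100a10. The cells led by Espn, Nppb, Selenbp1 and Car9, with 4 hypoxia markers among their 10 leading genes, averaged 76.9 ± 14.2 CPM of S100a6 and 241 ± 32.1 CPM of S100a10, both above the other melanoma-like cells in 8 of 8 tumours. The remaining 7 clusters averaged between 16.9 and 46.2 CPM of S100a6, the upper value in the cells led by the interferon-induced genes Ifit1 and Ifit3. 

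S100a1 and S100b peaked elsewhere, in the 3731 cells led by Kcnj13, Mgll, Coq8a and Trpm1. S100a1 averaged 298 ± 61.1 CPM and S100b 231 ± 38.4 CPM there, each above the other melanoma-like cells in 8 of 8 tumours. The same cells were low in S100a10 (107 ± 25.1 CPM) and S100a6 (17.9 ± 6.74 CPM), each above the others in 0 of 8 tumours. Dividing cells were low in S100a1, S100b and S100a13: the G2/M cluster led by Cenpf averaged 129.9 ± 17.6 CPM of S100a1 and 39.9 ± 3.29 CPM of S100a13, and the S-phase cluster led by Hist1h2ae 88.2 ± 8.16 CPM of S100b. S100a11 was highest in the cells led by Fgf21, Grb14 and Nupr1, at 169 ± 17.7 CPM, where S100a10 averaged 119 ± 19.3 CPM and lay above the other cells in 0 of 8 tumours.

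**Figure D2:**
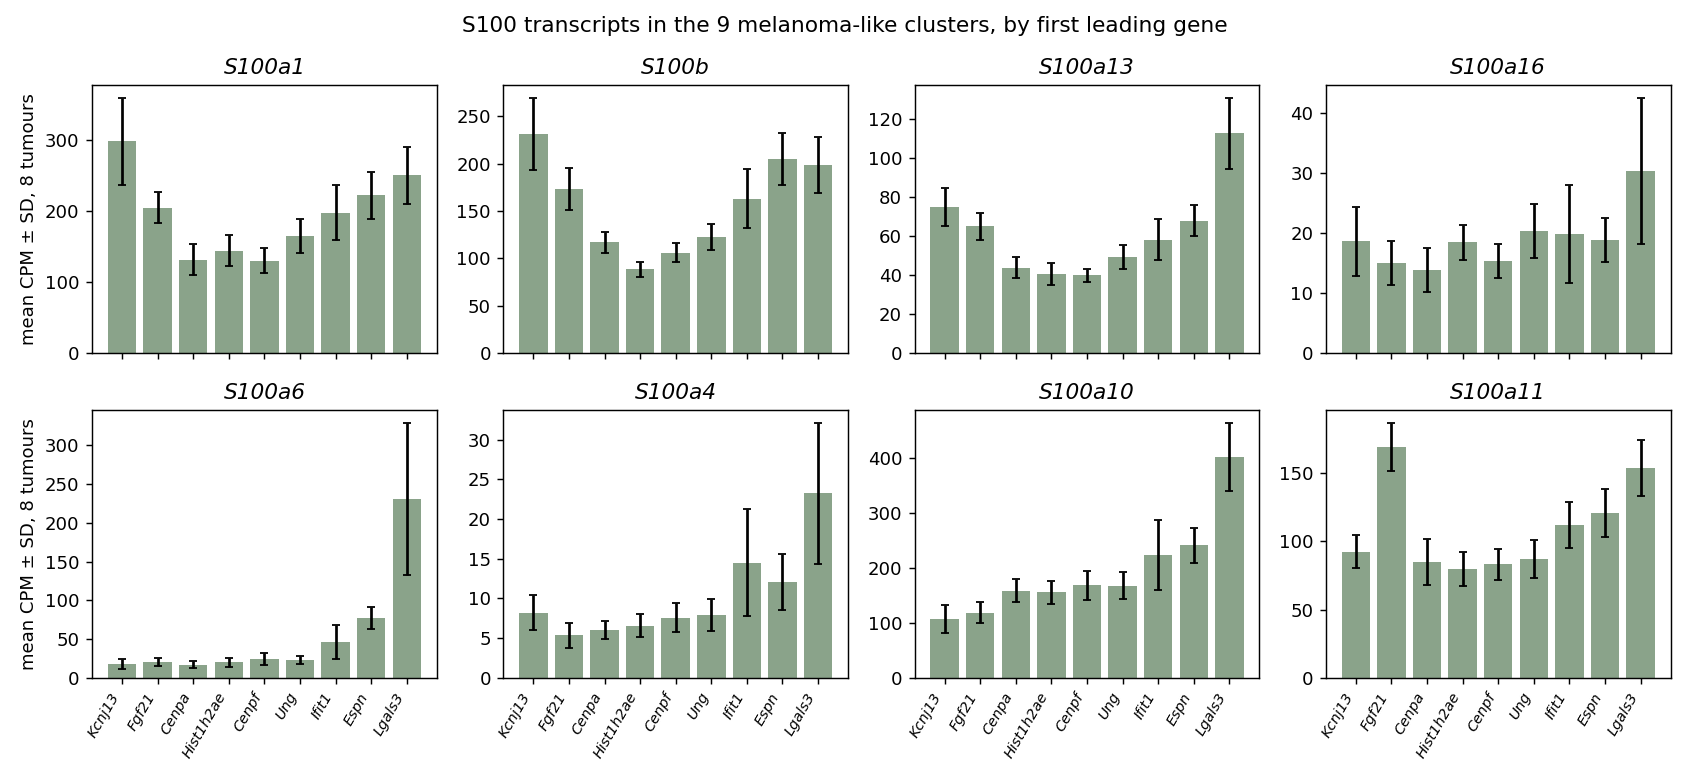
Mean CPM of 8 S100 genes in the 9 melanoma-like clusters, each named by its first leading gene, with bars for the mean and error bars for the SD over tumours. S100a6, S100a10, S100a13, S100a16 and S100a4 are highest in the Lgals3-led cluster, S100a1 and S100b in the Kcnj13-led cluster and S100a11 in the Fgf21-led cluster.

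Levels were also correlated over the 16 clusters, each of at least 30 cells, as log2 of pooled CPM + 1. These clusters include the unnamed ones and 1 of 241 cells that was removed from the other comparisons. S100a1 correlated with S100b at r = 0.924, S100a10 with S100a11 at 0.923 and S100a1 with S100a13 at -0.529. These points share libraries and depth and are a description. Among 10802 genes, those most like S100a6 in this profile were Sgk1 (r = 0.961), Tgfbr2 and Thbs1, those most like S100a4 Basp1, Lpl and Plac8, and those most like S100a16 Dpysl3 (r = 0.981), Phldb2 and Socs5. S100a1 ran closest to Mrpl23 (r = 0.956) and S100b to Zfp386 (r = 0.964).

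Between host genotypes, the member that differed in the melanoma-like cells was S100a6. It stood at 24.6, 26.4, 27.9 and 24.8 CPM in the melanoma-like cells of Atf4wt/wt hosts and at 38.7, 38.9, 36.8 and 41.7 CPM in those of Atf4D/D hosts. Every Atf4D/D tumour lay above every Atf4wt/wt tumour, as it did for 3.43% of all genes tested. The log2 difference was 0.59 (SE 0.066, edgeR adjusted p = 0.0201), and S100a6 was 1 of 9 members tested and 1 of 4 genes called among 12557 (0.0319%). That difference was known when the genes were listed. The call fell short of the threshold with host sex in the fit (adjusted p = 0.101), without the Lgals3-led cluster (0.0558) and without Atf4wt/wt tumour 1 (0.136), Atf4D/D tumour 1 (0.130) or Atf4D/D tumour 2 (0.0668), while the log2 difference stayed between 0.54 and 0.79 under all alternatives.

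The S100a6 difference varied between the melanoma clusters, with log2 ratios of the group means between -0.28 and 1.08. Its mean was higher in Atf4D/D hosts in 8 of 9 clusters and lower in the one led by Fgf21 (21.7 against 17.9 CPM). In the Kcnj13-led cluster it was 12.8, 10.4, 16.1 and 12.99 CPM in Atf4wt/wt and 17.8, 17.7, 24.8 and 30.5 CPM in Atf4D/D hosts, and in the Espn-led cluster it averaged 67.8 and 86.0 CPM. In these 2 clusters the groups did not overlap, as was the case, with Atf4D/D above, for 2.18% and 2.79% of the genes tested there. In the Espn-led cluster this rested on the TMM scaling, since without it the highest Atf4wt/wt tumour, at 80.4 CPM, lay above the lowest Atf4D/D tumour, at 80.1 CPM. In the Lgals3-led cluster the values were 188, 184, 179 and 162 CPM against 247, 181, 244 and 462 CPM, and the groups overlapped. The highest of these values, in Atf4D/D tumour 4, came from 45 cells. With all 9 clusters weighted equally, S100a6 averaged 41.7 ± 1.15 CPM in Atf4wt/wt and 64.1 ± 15.9 CPM in Atf4D/D hosts. The Atf4D/D tumours then stood at 57.6, 52.6, 58.7 and 87.6 CPM.

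More melanoma-like cells held S100a6 at all in the Atf4D/D hosts. Cells with at least 1 UMI made up between 11.7% and 16.5% in Atf4wt/wt and between 18.8% and 20.02% in Atf4D/D tumours. With each cell thinned to 5000 UMIs, the shares were between 8.31% and 9.93% and between 12.2% and 12.5%. Fibroblast RNA in the melanoma barcodes was measured beside it: the S100a6 that would accompany their collagen transcripts came to between 0.811 and 2.04 CPM in Atf4wt/wt and between 0.243 and 9.40 CPM in Atf4D/D tumours, and that with Lyz2, a macrophage transcript, to at most 1.62 CPM. For Atf4D/D tumour 3 the collagen value rests on 7 CAF-like cells. After subtracting both, 23.5 ± 1.78 CPM remained in Atf4wt/wt and 35.0 ± 2.85 CPM in Atf4D/D tumours, without overlap of the groups. Pericyte-like and endothelial-like cells were not among the sources, and the part of host RNA in the difference was not tested. Without the cells that held a collagen UMI, the log2 difference was 0.64 (edgeR adjusted p = 0.0544).

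**Figure D3:**
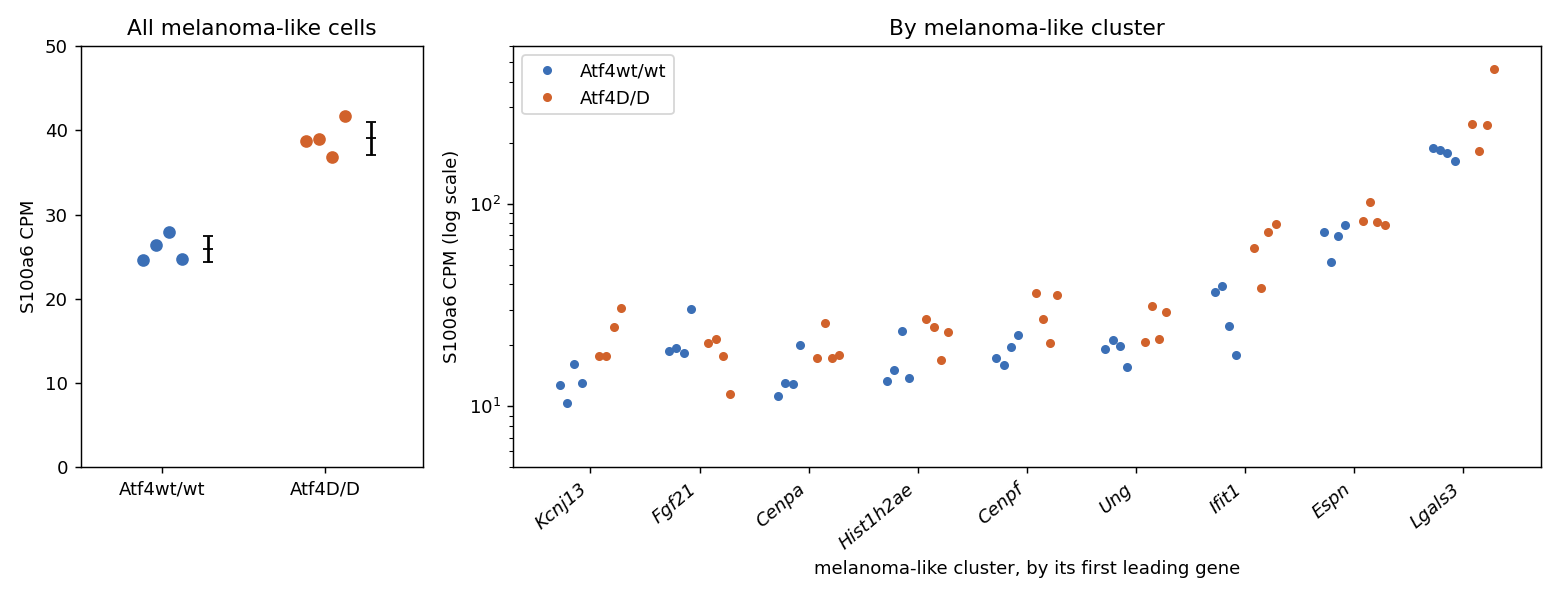
S100a6 CPM in melanoma-like cells with 1 point per tumour, over all such cells (left, with mean and SD beside the points) and by cluster on a log axis (right). Over all cells the Atf4wt/wt tumours lie between 24.6 and 27.9 CPM and the Atf4D/D tumours between 36.8 and 41.7 CPM, and the level by cluster is highest in the Lgals3-led cells of both genotypes.

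The other members gave no call in melanoma-like cells. S100a10 was 159, 155, 142 and 149 CPM in Atf4wt/wt and 209.9, 169.9, 191 and 150.2 CPM in Atf4D/D tumours, with overlapping groups and a log2 difference of 0.25 (SE 0.0941, edgeR adjusted p = 0.378). The remaining 7 tested had log2 differences between -0.14 and 0.16, and S100a9 was too sparse to be tested. In all kept cells together S100a10 was 165, 159, 156 and 162 CPM in Atf4wt/wt and 232, 184, 195 and 215 CPM in Atf4D/D tumours. There every Atf4D/D tumour lay above every Atf4wt/wt tumour (3.06% of genes), with a log2 difference of 0.36 (SE 0.075), an unadjusted p of 7.41e-04 and an adjusted p of 0.27 by edgeR. DESeq2 called it (adjusted p = 0.00237), but the share of all genes that DESeq2 called was not measured. None of the 9 members tested in all kept cells was called by edgeR, as was the case for 0 of 13117 genes (0%), while 1 member and 1366 genes (10.4%) had an unadjusted p under 0.05. In such sums, a change in the number of cells of a type and a change of RNA per cell cannot be told apart. CAF-like cells per tumour numbered 57, 26, 60 and 51 in Atf4wt/wt and 106, 88, 7 and 194 in Atf4D/D hosts, and S100a6 in all kept cells stood at 55.7, 65.8, 112 and 111 CPM and 189, 129.9, 43.2 and 349.6 CPM. All kept cells numbered 5573, 3075, 2706 and 3176 in the Atf4wt/wt and 2945, 3566, 3710 and 3419 in the Atf4D/D tumours. The part of fibroblast number was not tested.

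In CAF-like cells, where Atf4 was lower in Atf4D/D hosts, none of the 7 members tested was called, against 14 of 4220 genes (0.332%). S100a4 had the largest log2 difference among them, 0.73 (SE 0.226, edgeR adjusted p = 0.249), with 334 ± 86.7 CPM in Atf4wt/wt and 556 ± 174 CPM in Atf4D/D hosts. S100a10 stood at 671, 452, 1242 and 884 CPM against 1278, 977 and 1648 CPM, a log2 difference of 0.66 (SE 0.255, edgeR adjusted p = 0.450). The groups overlapped for both (4.43% of all genes were higher in every Atf4D/D tumour), and both were called when the filter on low counts was dropped (edgeR adjusted p = 0.00380 and 0.00273), when 0.832% of 14666 genes were called. S100a6 differed by 0.26 (SE 0.137, edgeR adjusted p = 0.658), and S100a16 by -0.01. Atf4D/D tumour 3, with only 7 CAF-like cells, was left out of these fits. Without TMM scaling it held 101 CPM of S100a4, 303 of S100a10 and 3367 of S100a6, each below every Atf4wt/wt tumour. For S100a6 the CAF-like log2 difference less the melanoma-like one was -0.36 (SE 0.125, edgeR adjusted p = 0.459), and 0 of 7 members were called in this comparison (0.0996% of 4016 genes).

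In the other host classes 0 members were called by edgeR: 0 of 5 tested in TAM-like cells (0% of 1524 genes), 0 of 4 in monocyte-like cells (0.379% of 264), 0 of 3 in dendritic-like cells (0% of 309) and 0 of 4 in T/NK-like cells (0% of 258). The share of genes with an unadjusted p under 0.05 was 5.51% in TAM-like, 4.21% in dendritic-like and 3.88% in T/NK-like cells. S100a4 in monocyte-like cells differed by -0.17 (SE 0.176), and in dendritic-like cells, with 2 Atf4wt/wt and 3 Atf4D/D tumours, S100a4 and S100a11 were higher in every Atf4D/D tumour, as were 12% of the genes tested there.

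**Figure D4:**
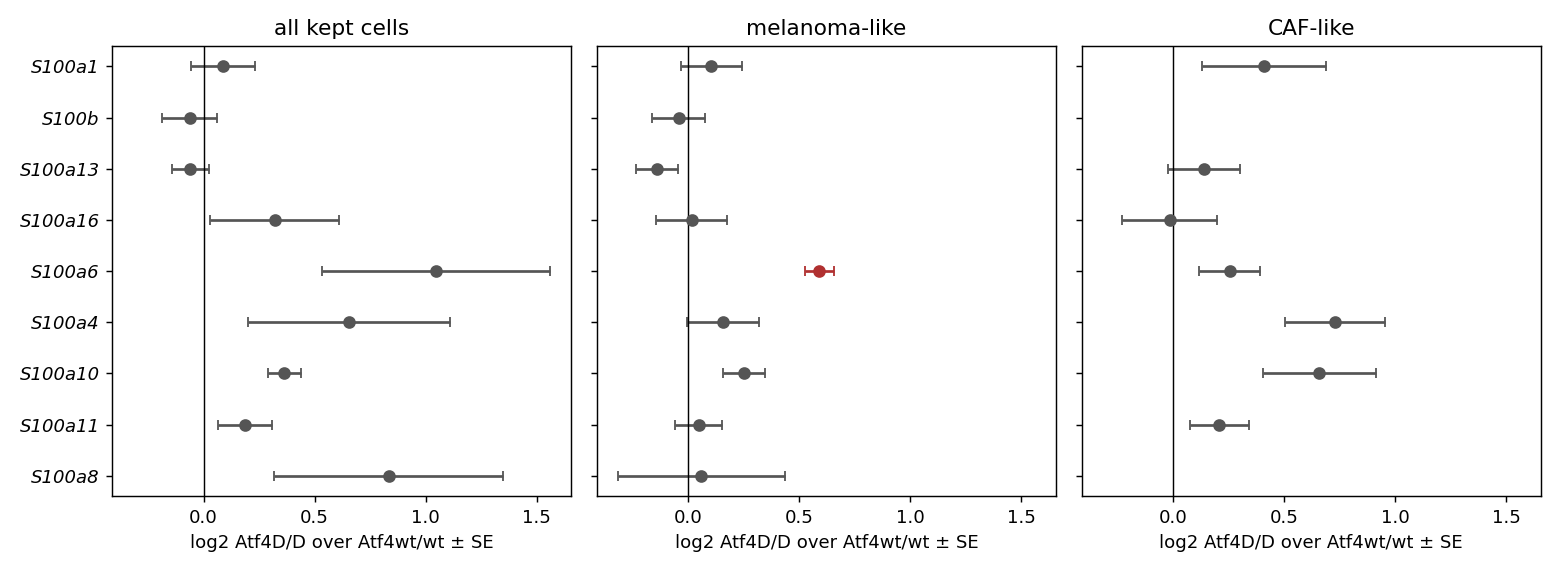
Log2 difference of each S100 gene between Atf4D/D and Atf4wt/wt hosts with its SE, in all kept cells, melanoma-like cells and CAF-like cells, from edgeR fits over all genes. S100a6 in melanoma-like cells, at 0.59, is drawn in red as the only member with an adjusted p under 0.05.

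Among 20 partners and receptors of S100 proteins, 17 were tested in melanoma-like cells and 1 was called, beside 0.0319% of all genes tested there. Plat, tissue plasminogen activator, which acts on the plasminogen that S100a10 and annexin A2 gather, averaged 1.70 CPM in Atf4wt/wt and 3.65 CPM in Atf4D/D hosts, a log2 difference of 1.10 (SE 0.154, edgeR adjusted p = 0.0468). Per tumour, without TMM scaling, it was 1.65, 2.12, 1.45 and 1.48 CPM against 3.43, 3.57, 3.91 and 3.90 CPM. The groups did not overlap, as was the case, with Atf4D/D above, for 3.43% of all genes tested. The call of Plat was not followed under the alternatives. CAF-like cells held far more Plat, 282 and 294 CPM. The Plat that would come with collagen transcripts was between 0.0146 and 0.316 CPM. Anxa2, annexin A2 itself, averaged 253 and 345 CPM (log2 0.45, edgeR adjusted p = 0.322), and Ager, the gene of RAGE, under 1 CPM, at 0.832 and 0.882 CPM. The median log2 difference was 0.11 over the 17 partners, of which 13 were positive, beside -0.00474 over all 12557 genes, of which 48.7% were positive. In CAF-like cells 0 of the 10 partners tested were called, beside 0.332% of all genes. The median log2 difference of these partners was 0.06, beside -0.02 over all genes.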

How the data were processed

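Tumours were dissociated and run on 10x Genomics 3' single-cell kits, V3 per the labels and V2 per the study's methods. The authors deposited 1 matrix of raw UMI counts (genes by barcodes) per tumour, and the submitters' processing notes name Cell Ranger 3.1.0, Seurat 3.2.1 and GRCm38. Barcodes above the study's mitochondrial limit were still in these files.

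Cells had to show 200 to 5000 genes and no more than 7.5% mitochondrial counts. With Seurat 5.3.0 in R 4.3.3, the cells were clustered on 2000 variable genes and 20 principal components at resolution 0.6, giving 16 clusters; CAF-like and immune cells were clustered again. A cluster of 241 cells, 231 of them from Atf4wt/wt tumour 4, with a median of 7.02% mitochondrial counts, was removed. Clusters were named by fixed marker lists, with thresholds set once cluster values were known. No doublet caller was run; subclusters that led with markers of 2 classes were set apart. For each class, the counts of a tumour with at least 10 such cells were added up and tested with edgeR 4.0.16 (expression filter, TMM, quasi-likelihood test, two-sided, Benjamini-Hochberg over all genes tested, threshold 0.05), with DESeq2 1.42.0 as an alternative. The script was tested on simulated counts. Each tumour came from its own mouse, and p-values measure the spread between tumours; replicate sums in melanoma-like cells differed by more than counting noise (chi-square per gene 10.9 to 42.7). For shares of cells, S100a8 and S100a9 were thinned to 500 UMIs and S100a6 to 5000, leaving out shallower cells. A carried level is the gene's level in the source class times the receiving class's share of that source's marker transcripts: Col1a1, Col1a2 and Col3a1 for CAF-like, Lyz2 for TAM-like and monocyte-like cells together, and the pigment genes for melanoma-like cells.

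The members and all lists were chosen with earlier results of these data known. The genes named are the members, the listed partners and neutrophil and monocyte genes, leading genes of clusters and, for each member, the 3 genes whose profile over clusters was most like it. Motifs were searched on both strands unless stated. Alternatives covered the tool, scaling, filters, host sex, replicate block, mitochondrial limit, clustering resolution and leaving out each tumour.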

Additional observations from a re-analysis of the deposited data

Results flagged for a closer look

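Groups of 4 tumours were screened for 1 value far from the other 3 by Dixon's ratio of gap to range, in 66 combinations of member, cell class and genotype, of which chance alone marks about 5%. The screen marked 4. S100a11 in all kept cells stood at 94.6 CPM in Atf4D/D tumour 3 and between 137 and 139.7 CPM in the other Atf4D/D tumours; that tumour also held the fewest CAF-like cells, 7, against 88 to 194. S100a9 in melanoma-like cells stood at 0.264 CPM (13 UMIs) in Atf4wt/wt tumour 1 and between 0 and 0.0413 CPM in the other 3. In TAM-like cells of Atf4wt/wt tumour 2, S100a4 stood at 1790 CPM (46 UMIs), against 274 to 400.3 CPM, and S100a6 at 2570 CPM (66 UMIs), against 627 to 943 CPM; both came from the same 18 cells, the smallest number of TAM-like cells in any tumour. The cause was not tested for any of the 4.

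The 12967 barcodes above 7.5% mitochondrial counts, which entered no comparison, held S100a8 at 0.502 CPM (49 UMIs) and S100a9 at 0.143 CPM (14 UMIs), above the 0.0307 CPM that 3 counts would give there. The barcodes that passed the filters held more of both, 0.595 and 0.450 CPM.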

How the results depend on the processing

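No result changed direction under any alternative. Of the counts of members called, that in all kept cells went from 0 to 1 with DESeq2 (S100a10), and that in melanoma-like cells, 1 in the report (S100a6), went to 0 with host sex as a term, with at most 5% mitochondrial counts (log2 0.79, adjusted p = 0.123), without the Lgals3-led cluster and without cells holding a collagen UMI. The last 2 alternatives, the equal weighting of clusters and the Espn-led cluster without TMM scaling were chosen after seeing the data. Leaving out 1 tumour gave 0 to 1 in melanoma-like cells, with S100a6 between 0.56 and 0.63 and adjusted p between 0.0303 and 0.136. The call was made with DESeq2 (adjusted p = 7.40e-10), with size factors of relative log expression (0.0193), without a filter on low counts (0.00152) and at clustering resolution 1.0 (0.0202). The share of all genes called was not measured in these fits or in the DESeq2 fit of all kept cells. In CAF-like cells the count went from 0 to 2 without the filter (S100a4 and S100a10), and stayed 0 when any 1 tumour was left out. In T/NK-like cells the count went from 0 to 2 without the filter, and the share of all genes called in that fit was not measured. A single barcode of Atf4D/D tumour 4 held 41 of the 41 S100a8 and 82 of the 83 S100a9 UMIs of these cells. Its part in the 2 calls was not tested. Leaving out Atf4D/D tumour 1 or 4 left 1 Atf4D/D tumour with enough T/NK-like cells, so no count is given for those fits. At resolution 1.0 the CAF-like means of S100a6, S100a16 and S100a13 were 5284, 393 and 280 CPM. The causes were not tested.

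Replicate numbers are shared by the groups, but same-numbered tumours did not deviate together (correlations of -0.05, -0.36, -0.15 and -0.22), so the numbers do not pair them. With the replicate block, 0 members were called in melanoma-like cells (S100a6 0.59, adjusted p = 0.201) and 2 in CAF-like cells (S100a4 0.91, adjusted p = 0.0171; S100a10 0.97, adjusted p = 0.00400; 1.40% of all genes there), and no other call changed.

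The host classes limit depth: fits used only tumours with at least 10 cells of the class. When the S100 genes were allowed among the variable genes, 647 of the 708 cells of the Lgals3-led cluster fell together again.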

Other observations

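Other genes of the S100 name were nearly silent in these tumours. Of 267536698 UMIs in the kept cells, S100a3 had 96, S100a14 and S100a7a 10 each, S100a5 3, S100g and S100z 2 each, and S100a2 0.

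The 2805 unnamed cells of low UMI content resembled melanoma-like cells in their S100 levels when pooled, with S100a1 at 233 CPM, S100b at 175 CPM and S100a6 at 53.4 CPM. The 77 CAF-like cells with melanoma markers held both kinds of transcript, S100a6 at 2029 CPM and S100b at 110.2 CPM. No doublet caller was run, and whether these barcodes held more than 1 cell was not tested.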
